A study of Homo sapiens with 9 samples.

Results

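The mRNA levels of 10 tubulin isotype genes were followed in H1299 cells after depletion of FIBP, the FGF1 intracellular binding protein. The members were chosen by gene symbol among 60966 genes: the alpha tubulin genes TUBA1A, TUBA1B, TUBA1C and TUBA4A, and the beta tubulin genes TUBB, TUBB2A, TUBB2B, TUBB3, TUBB4B and TUBB6. H1299 is an established human lung cancer cell line. All 3 groups were the same parental line: 3 samples received the Scramble control siRNA, 3 received Si-FIBP#1 and 3 received Si-FIBP#2. The siRNAs were used at 100 nM for 48 h. The transfections were transient, no untransfected sample was included in the groups, and nothing in the labels says whether the 3 samples of a group came from separate cultures, so p-values measure only the spread between these samples, which may be technical.

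Alpha and beta tubulin pair into the dimer that polymerizes into microtubules, the filaments that carry cargo in interphase and form the spindle in mitosis. Vertebrate cells encode each subunit in several genes, called isotypes, whose products are nearly identical in the body of the protein and differ mostly in the acidic tail at the carboxyl end, where motors, severing enzymes and modifying enzymes act. Cells also adjust tubulin mRNA to the pool of free dimer: TTC5 recognizes the amino-terminal stretch of a nascent tubulin chain on the ribosome and, with SCAPER and the CCR4-NOT deadenylase, brings about decay of the mRNA being translated.

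The coding starts are shown because autoregulation reads the amino-terminal stretch, with the first 12 bases (4 codons) in capitals. They were read from the GENCODE 29 transcripts on the coding strand, 5′ to 3′, with 30 bases for each gene.
TUBA1B: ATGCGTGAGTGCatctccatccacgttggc
TUBA1C: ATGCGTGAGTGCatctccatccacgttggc
TUBA1A: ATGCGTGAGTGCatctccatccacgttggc
TUBA4A: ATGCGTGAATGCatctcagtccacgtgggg
TUBB: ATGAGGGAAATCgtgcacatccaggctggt
TUBB4B: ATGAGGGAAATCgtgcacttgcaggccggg
TUBB6: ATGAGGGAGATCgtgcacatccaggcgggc
TUBB3: ATGAGGGAGATCgtgcacatccaggccggc
TUBB2A: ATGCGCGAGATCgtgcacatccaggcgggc
TUBB2B: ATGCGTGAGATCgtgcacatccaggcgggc
The starts fell into 6 versions of the 12 bases, which differ only in synonymous codons within each family. By the standard genetic code, all the alpha starts encode MREC and all the beta starts encode MREI. TUBA1A, TUBA1B and TUBA1C shared the same 12 bases, as did TUBB with TUBB4B and TUBB3 with TUBB6.

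The coding ends show how the beta isotypes differ from each other, and how closely TUBB2A resembles TUBB2B. The last 60 coding bases are given, with the stop codon in capitals.
TUBB: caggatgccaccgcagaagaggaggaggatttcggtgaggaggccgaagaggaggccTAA
TUBB4B: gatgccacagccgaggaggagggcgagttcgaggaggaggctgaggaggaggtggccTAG
TUBB6: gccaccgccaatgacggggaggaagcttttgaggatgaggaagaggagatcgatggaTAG
TUBB3: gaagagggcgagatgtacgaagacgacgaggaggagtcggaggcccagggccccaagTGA
TUBB2A: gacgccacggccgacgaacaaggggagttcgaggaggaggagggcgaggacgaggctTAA
TUBB2B: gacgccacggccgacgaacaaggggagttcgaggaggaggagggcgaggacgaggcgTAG
Over the whole coding sequence TUBB2A and TUBB2B were 98.1% identical, whereas the other beta pairs were 81.0% to 87.7% identical. Among the alpha genes, TUBA1A and TUBA1B were 97.2% identical, TUBA1B and TUBA1C 96.8%, and TUBA4A was the most distant, at 84.4% to TUBA1A.

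All positions are on GRCh38, as GENCODE 29 gives them. The genes TUBA1B (chr12:49127782-49131397, minus strand), TUBA1A (chr12:49184796-49189324, minus strand) and TUBA1C (chr12:49188736-49274603, plus strand) lie close together. The annotated ends of TUBA1A and TUBA1C overlap by 589 bp on opposite strands, and reads there cannot be told apart without strand information, which the sources used here do not give. TUBA4A lies at chr2:219249711-219278170 (minus strand). TUBB lies at chr6:30720201-30725426 (plus strand), and TUBB2A (chr6:3153669-3157526) and TUBB2B (chr6:3224261-3231730) are neighbours on the minus strand of the same chromosome. TUBB3 (chr16:89921392-89938761), TUBB4B (chr9:137241213-137243707) and TUBB6 (chr18:12307669-12344320) are on the plus strand. Each of the 10 coding transcripts compared has 4 exons.

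The libraries were similar in depth, with 20150000 to 23500000 fragments per sample as estimated from the steps in low FPKM values. FPKM are fragments per kilobase of transcript, scaled to the size of the library, so levels of different genes can be compared per length. FIBP fell from 81.9 ± 5.71 FPKM in Scramble (SD, n = 3) to 6.52 ± 1.93 under Si-FIBP#1 and 7.09 ± 1.15 under Si-FIBP#2, a change of -3.50 and -3.36 on the log2 scale (adjusted p = 9.4e-07 and 1.4e-06, limma). The labelled line was checked against markers. VIM was at 3230 FPKM in Scramble on average, KRT18 at 476, KRT8 at 107 and KRT7 at 8.33. Of these, VIM fell by 0.49 and 0.72 on the log2 scale under the 2 siRNAs (adjusted p = 0.0051 and 0.00057), KRT18 by 1.19 and 1.45 (adjusted p = 2e-05 and 6.9e-06) and KRT8 by 0.53 and 0.49 (adjusted p = 0.00033 and 0.00054), while KRT7 did not pass (-0.35 and -0.36, adjusted p = 0.131 and 0.119). EPCAM and CDH1 were at 0.28 FPKM or less in every sample, and the lung lineage markers NKX2-1, SFTPB, SFTPC and NAPSA at 0.66 FPKM or less. Of the immune markers, CD3E was at 0 in all samples and PTPRC at 0.27 FPKM or less, whereas CD68, a lysosomal protein gene, was at 31 to 33 FPKM in Scramble and rose by 0.27 and 0.90 on the log2 scale (adjusted p = 0.0387 and 5.5e-05). The endothelial markers stayed at 0.2 FPKM or less and the fibroblast markers at 1.59 FPKM or less. The neuronal marker RBFOX3 did not exceed 0.08 FPKM, although SNAP25 was at 8.86 to 15.9 FPKM and rose (0.32 and 0.50, adjusted p = 0.0487 and 0.0061), and SYT1 was at 3.67 to 5.54 FPKM and passed under Si-FIBP#2 (0.25 and 0.31, adjusted p = 0.0852 and 0.0375). The part of these markers in the tubulin results was not tested.

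Among the isotypes in Scramble cells, TUBA1B was the most abundant, at 1660 ± 42.8 FPKM (SD, n = 3), and ranked 78 among all genes. TUBA1C followed at 965.4 ± 25.1 FPKM, most of it assigned to a short and a retained intron transcript, and TUBA1A at 189.2 ± 4.17 FPKM. Among the beta genes, TUBB (852.2 ± 15.5 FPKM) was followed by TUBB4B (526 ± 15.0), TUBB6 (332.3 ± 16.1), TUBB3 (157.4 ± 14.8), TUBB2A (57.2 ± 1.72) and TUBB2B (11.4 ± 0.657). By gene FPKM, no neighbours in either order had overlapping samples, and the order was the same in the depleted groups, where only TUBB6 and TUBB3 under Si-FIBP#1 overlapped (means of 172.1 and 168.5 FPKM). The alpha order depended on the transcripts counted. With full-length coding transcripts only, TUBA1C was at 187, 77.2 and 87.1 FPKM in the 3 groups and TUBA1A at 183, 139 and 129 FPKM, so that TUBA1C lay below TUBA1A on average in both depleted groups. TUBA4A, an alpha isotype best known from platelets and neurons, was at 0.1 to 0.96 FPKM over the 9 samples, which corresponds to 4.21 to 39.3 estimated fragments per sample. It stayed below the 1 FPKM required for testing, so 9 of the 10 members were tested.

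After FIBP depletion most tubulin isotype mRNAs fell, TUBA1B, TUBA1C and TUBB the furthest. Under Si-FIBP#1, 7 of the 9 tested members fell in limma at a false discovery rate (FDR) below 0.05 and 0 rose, and 0 were higher at an unadjusted p below 0.05 either. Of all 14985 genes tested, 19.9% fell and 27.8% rose at that FDR. A change over 2-fold, required on top of the FDR, was passed downward by 3 of the 9 (TUBA1B, TUBA1C and TUBB), against 3.11% of all genes. With median ratio scaling the count was 5 of 9, with TUBB4B (-1.06) and TUBB6 (-1.02) also past 2-fold. In 8 of the 9 all Si-FIBP#1 samples lay below all Scramble samples, which held for 24.3% of all genes. The median log2 fold change was -0.94 over the 9 members and 0.073 over all genes. Under Si-FIBP#2, 8 of the 9 fell and 0 rose (0 higher also at an unadjusted p below 0.05), against 17.7% of all genes lower and 31.1% higher. TUBA1B and TUBB passed 2-fold (2 of 9), against 2.13% of all genes downward. In 9 of the 9 the Si-FIBP#2 samples lay below all Scramble samples, which held for 21.2% of all genes. The median was -0.79 over the members and 0.11 over all genes. The 2 comparisons share their Scramble samples. In bulk RNA, fewer cells that express a gene and less of its mRNA per cell cannot be told apart.

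When both siRNAs were pooled against Scramble, 7 members fell and 0 rose, and 2 of them passed 2-fold. In that comparison 20.3% of all genes fell and 32.6% rose at the FDR, and 2.45% passed 2-fold downward. The 6 depleted samples were below the 3 Scramble samples in 8 of the 9 members and in 16.5% of all genes. The median log2 fold change was -0.84 over the members and 0.089 over all genes.

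TUBA1B, a widely expressed alpha isotype, had the largest fall among the members. It measured 1695, 1613 and 1672 FPKM in the Scramble samples, 529.8, 526.7 and 524.2 under Si-FIBP#1, and 697.9, 602.9 and 680.1 under Si-FIBP#2. All 6 depleted samples were below the 3 Scramble samples, and the Si-FIBP#1 samples were below the Si-FIBP#2 samples. The log2 fold change was -1.65 (SE 0.054, adjusted p = 2.3e-07 in limma) under Si-FIBP#1, which left 31.7% of the Scramble mean. Under Si-FIBP#2 it was -1.33 (adjusted p = 5.4e-07), which left 39.8%. The fall was larger under Si-FIBP#1, by 0.32 on the log2 scale for Si-FIBP#2 minus Si-FIBP#1 (adjusted p = 0.0048).

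TUBA1C, the next alpha isotype in level, fell to about the same fraction with either siRNA. Its samples were at 948.5, 953.6 and 994.3 FPKM in Scramble, 470.7, 487.3 and 478.2 under Si-FIBP#1, and 522.7, 509.8 and 485.1 under Si-FIBP#2. The groups of depleted cells did not overlap with Scramble but overlapped with each other. The log2 fold changes were -1.01 (SE 0.041, adjusted p = 4e-07) and -0.93 (adjusted p = 6.7e-07), so only the first lay past 2-fold. With median ratio scaling the second was past it too (-1.05). The first was no longer past 2-fold without Scramble replicate 3 (-0.99) or without Si-FIBP#1 replicate 1. The difference between the siRNAs was 0.08 (95% interval -0.01 to 0.17). With full-length coding transcripts only, a choice made after the values were seen, the mean went from 187 to 77.2 and 87.1 FPKM. Those means were past 2-fold with both siRNAs, but this was not tested.

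TUBA1A, an alpha isotype prominent in the developing brain, fell less. The values were 194, 187 and 187 FPKM in Scramble, 151, 138 and 142 under Si-FIBP#1, and 158, 115 and 129 under Si-FIBP#2. Every depleted sample was below every Scramble sample, with a wider spread in Si-FIBP#2. The log2 fold changes were -0.40 (SE 0.095, adjusted p = 0.007) and -0.51 (adjusted p = 0.0018). The TUBA1A level thus remained at 75.9% and 70.9% of the Scramble mean.

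TUBB, the ubiquitous beta isotype, had the largest fall on the beta side. It was at 866, 835.4 and 855.2 FPKM in Scramble, 406.6, 396.9 and 390.2 under Si-FIBP#1, and 414.6, 336.1 and 375.8 under Si-FIBP#2. Depleted and Scramble samples lay far apart, and the 2 depleted groups overlapped. The log2 fold changes were -1.10 (SE 0.066, adjusted p = 2.1e-06) and -1.19 (adjusted p = 1.7e-06), both past 2-fold.

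TUBB4B, a broadly expressed isotype that is also used in cilia, measured 537.8, 509.1 and 531.1 FPKM in Scramble, 256.7, 268 and 272.2 under Si-FIBP#1, and 315.8, 290 and 300.6 under Si-FIBP#2. The 3 groups did not overlap. It fell by 0.98 on the log2 scale under Si-FIBP#1 (adjusted p = 6.2e-07), just short of 2-fold, and by 0.80 under Si-FIBP#2 (adjusted p = 1.9e-06). Under Si-FIBP#1 it was past 2-fold with TPM scaling (-1.03), with median ratio scaling (-1.06), and without Scramble replicate 2 (-1.01) or Si-FIBP#1 replicate 3.

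TUBB6, a widely expressed beta isotype, was at 350.5, 319.6 and 326.8 FPKM in Scramble, 172.2, 173.2 and 171 under Si-FIBP#1, and 212.3, 185.2 and 209 under Si-FIBP#2. Its groups did not overlap either, and Si-FIBP#1 was again the lowest. The log2 fold changes were -0.94 (adjusted p = 2.4e-06) and -0.72 (adjusted p = 1.3e-05). With median ratio scaling the first was -1.02, past 2-fold.

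TUBB2B, a neuronal isotype with the lowest level among the tested members, measured 10.8, 11.3 and 12.1 FPKM in Scramble, 6.16, 5.52 and 5.27 under Si-FIBP#1, and 5.6, 6.98 and 6.01 under Si-FIBP#2. All depleted samples were below Scramble. It fell by 0.90 (adjusted p = 5.5e-05) and by 0.79 (adjusted p = 0.00013) on the log2 scale, where the pseudocount of 1 FPKM makes the change of a gene this low look smaller than it is: the means were 2.02-fold and 1.84-fold lower. With a pseudocount of 0.1 FPKM it was past 2-fold under Si-FIBP#1.

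TUBB2A, the close copy of TUBB2B, did not follow it. The samples were at 59.2, 56.2 and 56.3 FPKM in Scramble, 55.9, 56.1 and 52.9 under Si-FIBP#1, and 47.4, 55.5 and 51 under Si-FIBP#2. The depleted samples lay only just below Scramble. The log2 fold changes were -0.06 (95% interval -0.20 to 0.08, adjusted p = 0.486) and -0.16 (-0.30 to -0.02, adjusted p = 0.063). Without Si-FIBP#2 replicate 2 the second was -0.22 and passed (adjusted p = 0.0114). It also passed with median ratio scaling (-0.28, adjusted p = 0.0031) and with Ensembl transcripts only (-0.22, adjusted p = 0.0186). Of the 150-base windows of the TUBB2A transcript, 49.4% also occur in TUBB2B, and 39.4% of those of TUBB2B occur in other genes, mostly TUBB2A, so the split of reads between the 2 genes is uncertain.

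TUBB3, the beta isotype of neurons that many carcinoma cells also make, differed between the siRNAs. It measured 174.5, 149.8 and 148 FPKM in Scramble, 178.9, 166.8 and 159.6 under Si-FIBP#1, and 121.6, 114.3 and 123.1 under Si-FIBP#2. Si-FIBP#1 samples overlapped with Scramble, and Si-FIBP#2 samples were below both. The log2 fold change was 0.10 under Si-FIBP#1 (95% interval -0.06 to 0.26, adjusted p = 0.277, or 0.18 with adjusted p = 0.0461 without Scramble replicate 1) and -0.39 under Si-FIBP#2 (SE 0.071, adjusted p = 0.0016). The difference between the siRNAs was -0.49 (adjusted p = 0.0026). Most of the TUBB3 transcript (88.7% of its 150-base windows) is also part of the annotated locus AC092143.1, which overlaps it and was listed at 1.05 FPKM or less.

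**Figure D1:**
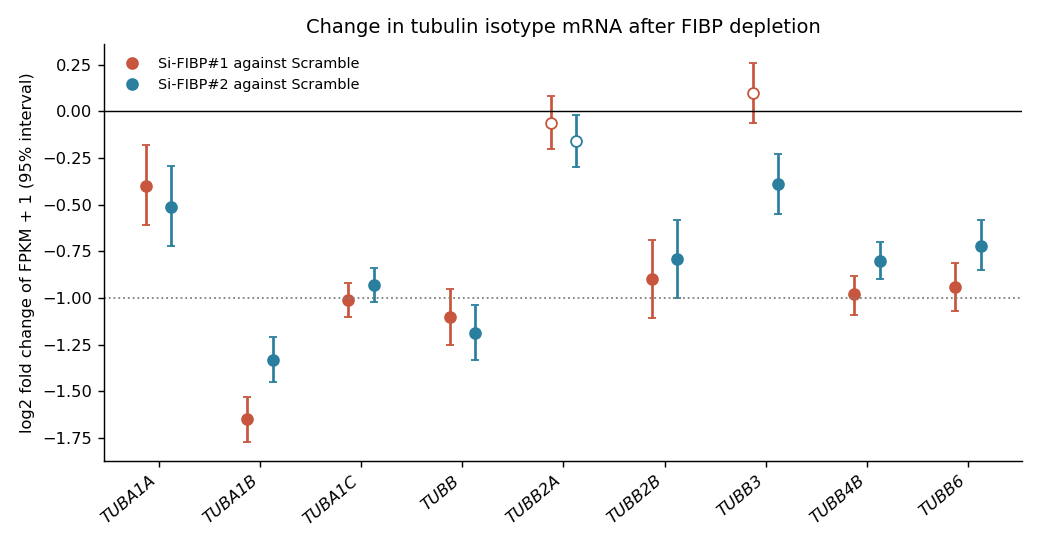
Log2 fold change of FPKM + 1 against Scramble for the 9 tested members, with 95% intervals from limma; filled points passed FDR below 0.05 and open points did not, and the dotted line marks a 2-fold fall. TUBA1B lies lowest at -1.65 and -1.33, TUBB2A stays near 0, and TUBB3 is at 0.10 under Si-FIBP#1 and -0.39 under Si-FIBP#2.

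Between the siRNAs, 3 members were higher under Si-FIBP#2 than under Si-FIBP#1 (TUBA1B, TUBB4B and TUBB6) and 1 was lower (TUBB3) at FDR below 0.05, and 0 passed 2-fold. Among all genes 9.58% were higher and 5.80% lower at the FDR, and 0.561% passed 2-fold in either direction. The samples of these 4 members did not overlap between the siRNAs, which held upward for 20.4% and downward for 12.5% of all genes. The TUBB4B difference was 0.18 (adjusted p = 0.0246) and the TUBB6 difference 0.23 (adjusted p = 0.0288). Neither passed without Si-FIBP#1 replicate 1 or 2 or without Si-FIBP#2 replicate 1 or 3 (TUBB6 also without Si-FIBP#1 replicate 3), where adjusted p reached 0.0844 for TUBB4B and 0.103 for TUBB6. FIBP itself was at 7.49, 7.77 and 4.3 FPKM under Si-FIBP#1 and at 7.13, 5.92 and 8.21 under Si-FIBP#2. These samples overlapped, and the difference did not pass in limma (log2 difference 0.13, adjusted p = 0.686). The part of the FIBP level in the tubulin differences was not tested.

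The isotype mix differed between the groups. As a share of the summed alpha FPKM, TUBA1B took 59.7%, 58.6% and 58.6% in Scramble, 46.0%, 45.7% and 45.8% under Si-FIBP#1, and 50.6%, 49.1% and 52.5% under Si-FIBP#2. The 6 depleted samples averaged 10.7 percentage points below the 3 Scramble samples (exact permutation test, two-sided, p = 0.0119, the smallest that 84 splits can give). TUBA1C took a larger share, at 34.3% ± 0.77 (SD, n = 3) in Scramble, 41.6% under Si-FIBP#1 and 39.0% under Si-FIBP#2 (p = 0.0119 in the same exact test). TUBA1A went from 6.72% to 12.5% and 10.3% (p = 0.0119, exact).

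On the beta side TUBB took 44.0% in Scramble, 37.4% under Si-FIBP#1 and 35.5% under Si-FIBP#2, a mean difference of -7.6 percentage points (p = 0.0119, exact permutation test). TUBB3 and TUBB2A, the members that changed least in level, took more of the mix. TUBB3 went from 8.12% to 15.8% and 11.3% (p = 0.0238, exact, and 0.0536 without Si-FIBP#1 replicate 2 or 3), and TUBB2A from 2.96% to 5.16% and 4.88% (p = 0.0119, exact). For TUBB4B (27.2%, 25% and 28.6%), TUBB6 (17.2%, 16.2% and 19.1%) and TUBB2B (0.59%, 0.53% and 0.591%) the exact p-values were 0.762, 0.583 and 0.607. The TUBB4B and TUBB6 shares lay below every Scramble sample under Si-FIBP#1 and above every Scramble sample under Si-FIBP#2. Pooling the siRNAs averages these opposite shifts, so the p-values of TUBB4B and TUBB6 do not mean unchanged shares. Shares of a family add to the same total, so the 10 tests are not independent. In all, 7 of 10 shares had p below 0.05 before any adjustment. The seventh was that of TUBA4A (0.00987%, 0.0476% and 0.0468% of alpha, p = 0.0238, exact), which rests on the 4.21 to 39.3 fragments per sample of a gene below the filter. In this design a comparison of 3 against 3 samples could not go below 0.10.

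The TUBA1C share depends on which transcripts are counted. In Scramble, 439 of its 965.4 FPKM came from ENST00000549183, an annotated coding transcript of 696 nt that is too short to encode a whole tubulin, and 311 from ENST00000548470, a retained intron transcript of 1105 nt. FPKM divide by length, and these short transcripts held 21.5% and 30.3% of the estimated TUBA1C fragments. When only transcripts that encode a full-length tubulin were summed, a choice made after the values were seen, TUBA1C took 9.85%, 11.3% and 10.9% of alpha in the 3 groups, and its difference no longer had an exact permutation p below 0.05 (p = 0.0595). TUBA1B then took 80.5%, 68.3% and 73.2%, and TUBA1A 9.68%, 20.4% and 16.0%, both with p = 0.0119 in the exact test.

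The summed alpha mRNA fell further than the summed beta mRNA. Alpha totalled 2815 ± 54.1 FPKM in Scramble (SD, n = 3), 1150 ± 4.24 under Si-FIBP#1 and 1301 ± 74.9 under Si-FIBP#2, or 40.8% and 46.2% of Scramble. Beta totalled 1936 ± 59.0, 1065 ± 12.8 and 1057 ± 65.0 FPKM, or 55% and 54.6%. The alpha to beta ratio was 1.42, 1.46 and 1.48 in the Scramble samples, 1.07, 1.08 and 1.09 under Si-FIBP#1, and 1.23, 1.24 and 1.22 under Si-FIBP#2, and the 3 groups did not overlap. Together the members made up 0.605% of all FPKM in Scramble, 0.273% under Si-FIBP#1 and 0.3% under Si-FIBP#2. The totals and their ratio depend on the TUBA1C transcripts counted. With full-length coding transcripts only, TUBA1C was at 187, 77.2 and 87.1 FPKM in the 3 groups. On average, summed alpha then lay only just above summed beta in Scramble and below it in both depleted groups. No test was run on these totals.

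Within some genes the transcripts did not keep one ratio, while in others they nearly did. The main transcript of TUBB4B took 99.3%, 99.2% and 99.2% of its gene in the 3 groups, and that of TUBB 98.2%, 97.5% and 97.8%. ENST00000554444 of TUBB3 was at 5.06, 7.32 and 6.63 FPKM in Scramble, 10, 13.3 and 10.5 under Si-FIBP#1, and 14.9, 11.6 and 15 under Si-FIBP#2, with no overlap between Scramble and the depleted samples. Its share of TUBB3 was 4.03%, 6.7% and 11.6% in the 3 groups, while the main transcript ENST00000315491 went from 145 to 151 and 101 FPKM. For TUBB6, ENST00000591909 (1017 nt) took 7.67%, 9.71% and 13.4% by group means. Its samples were uneven under Si-FIBP#2, at 32.5, 18.9 and 29.6 FPKM, beside 18, 17.3 and 14.9 under Si-FIBP#1. These are descriptions of the authors' transcript estimates and were not tested.

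The promoters of TUBA1B, TUBA1C and TUBB4B are shown because these genes fell together and differ in the letters searched. CCAAT (the letters bound by NF-Y) and TTTGAA (the core of the CHR element of many cell cycle promoters) were searched on both strands in the 300 bases around each start, 250 before and 50 after, from RefSeq on GRCh38.p14. A promoter entry was found for all 10 members. Several entries were listed for TUBA1C (3) and for TUBB, TUBB3 and TUBB6 (2 each). In those cases only the entry nearest the start of the transcript compared was searched. The start used lay up to 244 bases from that of the transcript (TUBA1A), so the matches hold for these starts only. The bases before the start are printed 5′ to 3′ on the gene's strand with matches to either motif on either strand in capitals, for TUBA1B at chr12:49131396-49131645 (minus strand), TUBA1C at chr12:49264832-49265081 (plus strand) and TUBB4B at chr9:137241037-137241286 (plus strand).
TUBA1B promoter: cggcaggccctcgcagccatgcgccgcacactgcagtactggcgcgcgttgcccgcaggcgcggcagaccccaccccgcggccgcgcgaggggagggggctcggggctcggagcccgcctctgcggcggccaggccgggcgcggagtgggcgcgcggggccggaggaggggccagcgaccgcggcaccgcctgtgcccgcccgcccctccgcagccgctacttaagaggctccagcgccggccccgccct
TUBA1C promoter: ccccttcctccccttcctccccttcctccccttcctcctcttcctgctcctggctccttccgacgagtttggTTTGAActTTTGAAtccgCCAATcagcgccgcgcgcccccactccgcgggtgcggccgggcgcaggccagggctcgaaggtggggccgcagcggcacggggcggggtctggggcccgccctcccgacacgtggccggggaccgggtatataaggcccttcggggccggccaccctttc
TUBB4B promoter: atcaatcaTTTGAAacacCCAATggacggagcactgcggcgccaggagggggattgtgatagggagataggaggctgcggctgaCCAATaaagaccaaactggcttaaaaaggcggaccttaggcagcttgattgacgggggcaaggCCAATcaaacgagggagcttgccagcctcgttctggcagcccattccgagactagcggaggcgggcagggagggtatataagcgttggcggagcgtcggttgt
CCAAT was present in 7 of the 10 members and in 34.6% of 35116 promoters. TUBB4B had 3 matches, TUBA1A 2, and TUBA1C, TUBB, TUBB2B, TUBB3 and TUBB6 had 1 each. TTTGAA was present in 2 members, with 2 matches in TUBA1C and 1 in TUBB4B, and in 15.2% of all promoters. The TTTGAA count lies near that share, so it is not a result about the members. TUBA1B, with the largest fall, TUBA4A and TUBB2A held neither motif in this window. The 2 motifs share no overlapping match in the printed sequences.

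Genes with the most similar pattern to the 3 members with the largest falls were named by Pearson's r of log2(FPKM + 1) over the 9 samples. For TUBA1B they were CDC20 (r = 0.999), FOXM1 (0.999) and KIF18B (0.998). For TUBA1C they were ASNS (0.998), CKS1B (0.997) and MCM3 (0.997), and for TUBB they were TFAM (0.998), TRIM59 (0.997) and PDS5A (0.997). The 9 points fall into the 3 groups, so r mostly reflects group means.

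Other genes of the tubulin and microtubule system were read against the same shares of all genes, 27.8% higher and 19.9% lower under Si-FIBP#1 and 31.1% higher and 17.7% lower under Si-FIBP#2. Of 5 tested tubulin genes outside the member list, TUBG1 (gamma tubulin, the nucleating tubulin) fell by 0.72 and 0.68 on the log2 scale with the 2 siRNAs (adjusted p = 3.8e-05 and 5.5e-05). TUBB4A, a neuronal beta isotype, was at 1.13, 0.66 and 1.12 FPKM in Scramble and at 1.38 to 2.25 FPKM in the depleted samples. It met the filter only through the depleted samples, which favours a higher value there, so its test is not given. The other 3 did not pass.

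Among the folding factors, prefoldin, the CCT chaperonin and the tubulin cofactors gave 22 tested gene identifiers for 21 symbols (TBCE has 2), of which 4 rose and 6 fell under Si-FIBP#1 (27.8% and 19.9% of all genes) and 5 rose and 7 fell under Si-FIBP#2 (31.1% and 17.7% of all genes). By the mean of both log2 fold changes, the gene that fell furthest was VBP1, a prefoldin subunit (-0.52 and -0.71, adjusted p = 0.00017 and 2.7e-05), and the gene that rose furthest was TBCEL, a relative of the tubulin cofactors (0.71 and 0.65, adjusted p = 0.0029 and 0.0048). The median log2 fold changes were -0.021 and -0.034, against 0.073 and 0.11 over all genes.

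Of the 5 autoregulation genes, 1 rose and 0 fell at the FDR under each siRNA, against 27.8% and 31.1% of all genes higher, so the count is not a result about these genes. The one was CNOT11, the CCR4-NOT subunit of this pathway (0.33 and 0.41, adjusted p = 0.0032 and 0.00087). TTC5 and SCAPER, named here after their values were seen, were at 7.08 and 6.52 FPKM in Scramble. TTC5 had log2 fold changes of 0.19 and 0.20 (adjusted p = 0.341 and 0.302), and SCAPER of 0.16 and 0.12 (adjusted p = 0.349 and 0.477).

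Among 19 tested enzymes and adaptors that modify tubulin, 7 rose and 4 fell under Si-FIBP#1, and 6 rose and 3 fell under Si-FIBP#2. These counts lie near the shares of all genes (27.8% and 19.9%, 31.1% and 17.7%). TPGS1, a subunit of a polyglutamylase complex, rose (0.75 and 0.96, adjusted p = 4.7e-05 and 1.2e-05). TTLL4, a polyglutamylase, fell (-0.61 and -0.79, adjusted p = 0.0031 and 0.00066).

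In the gamma-tubulin ring complex and its partners, which nucleate microtubules, 6 of 10 genes fell under each siRNA, and 0 rose in limma, also at an unadjusted p below 0.05. Of all genes, 19.9% and 17.7% fell. The median log2 fold changes of the 10 were -0.33 and -0.32, against 0.073 and 0.11 over all genes. MZT1, a small subunit, fell by 1.00 and by 0.35 (adjusted p = 3.3e-05 and 0.0132).

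Among 20 microtubule stabilizers and plus-end proteins, 4 rose and 3 fell under Si-FIBP#1 (27.8% and 19.9% of all genes) and 7 rose and 6 fell under Si-FIBP#2 (31.1% and 17.7% of all genes). TPX2, a spindle assembly factor, fell (-1.58 and -1.02, adjusted p = 1e-06 and 1.3e-05), and PRC1, which bundles the central spindle, fell (-1.52 and -0.88, adjusted p = 7.6e-07 and 1.7e-05). MAP7, a cofactor of kinesin motors, rose (1.03 and 1.19, adjusted p = 4.5e-05 and 2.1e-05). MAPT, the gene of tau, was at 0.83 FPKM on average in Scramble and at 2.35 and 2.92 FPKM in the depleted groups. MAP7D2, named after its values were seen, was at 0.89, 1.45 and 1.1 FPKM in Scramble and at 1.35 to 1.95 FPKM in the depleted samples. Both met the filter only through the depleted samples, so their tests are not given, but MAPT is in the count of genes that rose under either siRNA and MAP7D2 in that under Si-FIBP#2.

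Among 12 destabilizers and severing enzymes, 7 fell under Si-FIBP#1, and 5 fell and 2 rose under Si-FIBP#2. Of all genes, 19.9% fell under Si-FIBP#1, and 17.7% fell and 31.1% rose under Si-FIBP#2. Of the 2 that rose, named after their values were seen, STMN3 fell under Si-FIBP#1 (-0.37 and 0.33, adjusted p = 0.0194 and 0.0312), and KATNAL2 (2.14, 0.8 and 0.57 FPKM in Scramble, 1.88 to 3.41 under Si-FIBP#2) met the filter only through the depleted samples, so its test is not given. KIF2C, a mitotic depolymerase, fell from 74.7 to 21.8 and 30.8 FPKM (-1.74 and -1.26, adjusted p = 5e-07 and 2.7e-06).

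All 10 mitotic genes fell in both comparisons, against 19.9% and 17.7% of all genes, with median log2 fold changes of -1.5 and -1.2. The list was chosen with earlier results of these data known, so its counts are a description and not an independent test. The largest fall was that of CDC20, the mitotic activator of the anaphase-promoting complex (-1.88 and -1.52, adjusted p = 3.1e-07 and 6.7e-07). All 10 were past 2-fold under Si-FIBP#1 and 7 under Si-FIBP#2, against 3.11% and 2.13% of all genes downward. The cyclins and their kinase had log2 fold changes of -1.73 and -1.35 (CCNB1), -1.18 and -0.86 (CCNB2), -1.56 and -1.08 (CCNA2), and -1.75 and -1.35 (CDK1). The mitotic kinases had -1.45 and -1.22 (PLK1), -1.44 and -0.91 (AURKA), and -1.56 and -1.10 (BUB1, of the spindle checkpoint). TOP2A, the DNA topoisomerase of dividing cells, had -1.50 and -1.31, and MKI67, the proliferation marker, -1.50 and -0.97. Of these 10 genes, 8 were higher under Si-FIBP#2 than under Si-FIBP#1, against 9.58% of all genes. TUBA1B, TUBB4B and TUBB6 also had this direction, TUBB3 had the opposite one (-0.49, adjusted p = 0.0026), and the other 5 tested members did not pass. The part of the mitotic genes' change in the tubulin result was not tested.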

How the data were processed

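Total RNA of 9 H1299 samples (3 per group, as labelled) was sequenced after poly(A) selection, paired-end. Each sample has 1 table of FPKM per transcript, with 2 decimals, as the authors deposited it, and HISAT2 and StringTie are named in the submitters' processing notes. The unit was read from the values, and the build, annotation and versions are not given in the sources used here. Transcript FPKM were summed per gene. The 14985 genes that reached 1 FPKM in 3 or more samples entered limma 3.58.1 (trend, all 9 samples) in R 4.3.3 on log2(FPKM + 1), with Benjamini-Hochberg adjustment over all genes, and the test was checked on simulated data. Fold changes on this scale understate changes of low genes. Shares were compared by an exact permutation test (scipy 1.17.1). Depth, estimated from FPKM steps, was 20150000 to 23500000 fragments per sample, and assembled transcripts took 5.45% to 5.84% of FPKM.

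The tests used the alternatives listed at the end: pseudocount, filter, scaling, fit, transcripts and samples left out. The members and lists were chosen with earlier results of these data known. Named genes were the members, FIBP, the markers, list genes past 2-fold, the largest rise and fall of each list that passed under both siRNAs, and the 3 genes most alike to each member past 2-fold. Sequences come from GENCODE 29 and RefSeq (GRCh38), and no protein database was used here. MATCAP1 and TTLL13 were not found by symbol and were not analysed here. A marker of the line is not reported here.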

Additional observations from a re-analysis of the deposited data

Results flagged for a closer look

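The response of 4 members differed between the siRNAs in the test of the difference itself (limma, Si-FIBP#2 minus Si-FIBP#1, both against the same Scramble samples). TUBA1B was higher under Si-FIBP#2 by 0.32 on the log2 scale (adjusted p = 0.0048, means of 660.3 and 526.9 FPKM, higher in 3 of 3 samples), and the difference had adjusted p below 0.05 under all 17 alternatives (0.000205 to 0.0243). TUBB3 was lower under Si-FIBP#2, with a difference of -0.49 (adjusted p = 0.0026, means of 119.7 and 168.5 FPKM, lower in 3 of 3 samples), and this also held under all 17 alternatives (adjusted p 0.00136 to 0.0124). TUBB4B differed by 0.18 (adjusted p = 0.0246, range over the alternatives 0.00906 to 0.0858) and TUBB6 by 0.23 (adjusted p = 0.0288, range 0.00306 to 0.103). Their adjusted p was over 0.05 in 7 and 8 of the 17 alternatives.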

How the results depend on the processing

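The direction and side of the threshold of TUBA1A, TUBA1B, TUBA1C, TUBB, TUBB2B, TUBB4B and TUBB6 at FDR below 0.05 against Scramble stayed as reported under every alternative run, for both siRNAs. The 2-fold count did not: under Si-FIBP#1 it was 5 with median ratio scaling instead of 3, 4 with a pseudocount of 0.1 (TUBB2B) or TPM scaling (TUBB4B), and 2 to 4 when 1 sample was left out. Under Si-FIBP#2 and with both siRNAs pooled it was 3 instead of 2 with median ratio scaling (TUBA1C). That scaling brought the all-gene median for Si-FIBP#2 from 0.11 to 0.0047 (log2), and put the beta total at 51.1% and the alpha and beta total at 44.8% of Scramble over both siRNAs. Under Si-FIBP#1, 0 to 1 members rose with 1 sample left out: without Scramble replicate 1, TUBB3 passed upward (adjusted p = 0.0461). The count of members higher under Si-FIBP#2 than Si-FIBP#1 was 1 instead of 3 with no filter, with median ratio scaling and with only the groups compared, and 1 to 3 with a sample left out. It was 1 without Si-FIBP#1 replicate 1 or 2 and without Si-FIBP#2 replicate 1 or 3. TUBB2A under Si-FIBP#2 passed in 3 of 17 alternatives. Reversed values were the TUBB2B difference between siRNAs (-0.14 with Ensembl transcripts only) and the TUBB4B share (0.206 percentage points without Si-FIBP#1 replicate 1, within -0.895 to 0.206 over samples left out). With full-length coding transcripts only, an alternative chosen after seeing the data, the TUBB4B share difference was 0.54, the TUBB6 share difference -0.0405, and the alpha total 39.3% of Scramble. Of 127 share values under alternatives, 8 (of TUBA4A, TUBB3 and TUBA1C) lost an exact p below 0.05. The causes were not tested. Over all genes, a pseudocount of 0.1 raised the genes past 2-fold from 848 to 1498, from 757 to 1411, from 721 to 1418 and from 84 to 172 in the 4 comparisons, and leaving out Si-FIBP#2 replicate 2 raised the last to 128. The replicate numbers share no stated origin, and deviations of same-numbered samples correlated at -0.057 to 0.103. With the number as a replicate block, 3 members passed 2-fold under Si-FIBP#1, as without it, and 853 genes did instead of 848, while TUBB3 under both siRNAs pooled passed the FDR only with the block, TPM scaling or median ratio scaling. Depth limits TUBA4A, at 4.21 to 39.3 fragments per sample.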

Other observations

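TUBBP1, a pseudogene of TUBB chosen after its values were seen, fell with its parent gene, from 12.5 ± 0.784 FPKM in Scramble (SD, n = 3) to 5.12 ± 0.785 under Si-FIBP#1 and 5.18 ± 1.02 under Si-FIBP#2. The log2 fold changes were -1.15 and -1.14 (limma, adjusted p = 0.00011 and 0.00012), beside -1.10 and -1.19 for TUBB. Of the 150-base windows of the TUBB transcript, 2.5% also occur in TUBBP1, but the share of TUBBP1 that occurs in TUBB was not computed. TUBB was at 852.2 FPKM in Scramble, far above TUBBP1, so a small part of its reads could weigh heavily there. How far TUBB reads enter the TUBBP1 value was not tested.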
